A study of Mus musculus with 12 samples.

Results

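The genes described here are 48 regulators of actin filament assembly, taken as a fixed list by function: actin monomer-binding proteins, filament-severing and capping proteins, the Arp2/3 complex and its activators, formins, and the Ena/VASP proteins. They were found on the arrays through the RefSeq accession of each probe, which gave 72 probes for the 48 genes, out of 21154 named genes and 55681 probes in all. For the 18 genes with several probes, the brightest probe over the 12 arrays stands for the gene unless another is named. Of the 48 genes, 47 were well above background on all 12 arrays and were tested in every comparison. The exception was Cap2, which passed the background filter on 1 of 12 arrays and was tested in none.

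Actin exists as monomers and as filaments. Monomer-binding proteins hold or deliver monomers, nucleators (Arp2/3 and the formins) start new filaments, capping proteins block their growing ends, and cofilins take them apart, so these genes together set how much actin is monomeric. The monomer pool is read by Mkl1 (also called MRTF-A), a cofactor of serum response factor (Srf) that binds monomeric actin and is released from it when monomers are used up. Released Mkl1 joins Srf at CArG boxes, the DNA elements that Srf recognizes, and many of the genes activated in this way code for parts of the actin cytoskeleton itself.

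The cells were mouse neural progenitor cells (NPCs) derived in culture from embryonic stem cells and kept on gelatin with EGF and basic FGF. All groups carried a retroviral vector. In the overexpression experiment the vector held the open reading frame of EGFP (a fluorescent protein and the control), Srf or Mkl1. In the knockdown experiment it expressed a short hairpin RNA, directed at EGFP in the control (shEGFP) or at Actb, the β-actin gene, in a pair of constructs (shActb_1 and shActb_2). The methods name more than 1 NPC line, which derive from an embryonic stem cell line with a drug-resistance cassette in Oct4 and of which some also carry inducible reprogramming factors, and the labels do not say which of them was used. Each of the 6 groups had 2 one-colour arrays. By the study's description the paired knockdown arrays were technical repeats, and nothing says that the others came from separate cultures, so the p-values measure only the spread between these arrays. In bulk RNA, a different number of cells of a type cannot be told apart from a different amount of RNA per cell.

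Several features of the arrays touch the results. The Actb probe read 8.74 and 8.75 on the shEGFP arrays, 8.23 and 8.20 with shActb_1, and 8.12 and 8.06 with shActb_2, as log2 signal relative to the 75th percentile of the array, the scale of all levels below. The brighter Srf probe read 2.45 and 2.87 in EGFP but 1.20 and 1.32 on the arrays labelled Srf, which goes against that label, so they are called the arrays labelled Srf and their directions hold only as far as the label does. The gene of Mkl1, Mrtfa, did not pass the test on the Mkl1 arrays at either of its probes, which changed by 0.20 (adjusted p = 0.12, limma) and by 0.17 (adjusted p = 0.313, limma), so that label has no direct check either. Where these probes lie relative to the inserted reading frames is not known here. Of 5 smooth-muscle or adhesion genes known as Srf targets, 3 rose on the arrays labelled Srf, Acta2 by 3.37, Tagln by 2.34 and Cnn1 by 1.14, while Myl9 changed by 0.26 without passing and Vcl fell (-0.60). With Mkl1 and with each hairpin all 5 rose, Acta2, Cnn1, Tagln and Myl9 by 2.20 to 6.92 and Vcl by 0.59 to 0.76. EGFP, Srf and Mkl1 arrays shared a slide, with EGFP in another row, so row and group cannot be told apart against EGFP. The shEGFP and shActb_1 arrays shared a slide and a row. The shActb_2 arrays had a slide of their own, so slide and hairpin cannot be told apart. Of 12 neural progenitor markers, 10 were well above background on all arrays. The sum of the 12 was 8.51 to 8.52 with shActb_2 and 8.10 to 8.12 with shActb_1, against 7.99 to 8.01 in shEGFP. It was 8.34 to 8.40 with Mkl1 and 8.02 to 8.06 on the arrays labelled Srf, against 8.13 to 8.22 in EGFP. Vim, by far the brightest of them, read 8.36 and 8.37 with shActb_2 and 7.83 and 7.86 in shEGFP, so the sums mostly follow this gene. Single markers were 1 higher and 4 lower with Mkl1, 0 and 4 with shActb_1, 3 and 2 with shActb_2, and 3 and 1 on the arrays labelled Srf. The summed signal of 7 neuron markers, on the same log2 scale, was 3.27 to 3.39 in EGFP and 3.26 to 3.31 in shEGFP and lower in every treated group (2.25 to 2.70). Single neuron markers were 1 higher and 2 lower on the arrays labelled Srf, 0 and 2 with Mkl1 and with shActb_1, and 0 and 3 with shActb_2. On the arrays labelled Srf, Stmn2 read -1.43 and -1.52 against 2.53 and 2.28 in EGFP. Tubb3 went the other way there, at 0.31 and 0.14 against -1.45 and -1.17. The sum of 8 fibroblast or mesenchyme markers was 7.12 to 7.46 over the control arrays and 6.40 to 6.95 over the treated arrays. Single mesenchyme markers went both ways, with 3 higher and 3 lower on the arrays labelled Srf, 1 and 4 with Mkl1, 1 and 3 with shActb_1, and 1 and 5 with shActb_2. The higher one with Mkl1 and with each hairpin was Thy1, at -0.56 and -0.64 with Mkl1 against -3.94 and -3.44 in EGFP. The astrocyte sum was 2.34 to 2.56 with the hairpins against 2.99 to 3.02 in shEGFP. It was 2.69 to 2.79 with Mkl1 and 3.01 to 3.08 on the arrays labelled Srf, against 2.93 to 3.04 in EGFP. On the arrays labelled Srf the myeloid sum was 3.88 to 3.96 and the embryonic stem cell sum 2.02 to 2.17, against 3.13 to 3.21 and 0.82 to 1.46 in EGFP. Single myeloid markers there were 3 higher and 1 lower. Of 6 stem cell markers 2 were higher and 0 lower, with a median change of 0.04. Their sum rose mainly through Esrrb, at 1.43 and 1.19 against -1.13 and -1.31 in EGFP. Nanog read -0.87 and -0.93 against -0.90 and -1.15, and Pou5f1 -4.13 and -4.96 against -3.98 and -4.41. These marker lists moved with the comparisons below, and their part in the results was not tested.

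Srf elements near these genes were looked up first. RefSeq promoter windows (build GRCm38.p6, from 250 bases before to 50 after a gene start) were matched for 43 of the 48 genes. A CArG box, searched by its consensus on both strands, occurred in 2 of the 43 genes (4.65%), Arpc4 and Vil1, and in 1.81% of the 27025 genes with a window. When 1 other base was allowed among the A or T positions of its core, 6 of the 43 genes (14%) held a match, against 11.3% of all genes with a window. The matching stretches are shown because they belong to genes whose levels are followed below, with the match in capitals. A match describes the sequence only, and no match says only that these letters are not in this window.

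Arpc4 (consensus match, chr6:113377863-113377882, plus strand): CCTAATTTGGtgcccaacct
Vil1 (consensus match, chr1:74409301-74409330, plus strand): ccctatcttcCCTTATATGGtgaaggaagt
Arpc1a (1 other base, chr5:145083754-145083783, plus strand): acagaacacgCCAACAAAGGctacgttctg
Gsn (1 other base, chr2:35256187-35256216, plus strand): gactcagtttCCTTCTATGGaccgcagaga
Dstn (1 other base, after the gene start, chr2:143915361-143915380, plus strand): catgcactccCCTTAACTGG

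The upstream 250 bases are given whole for Dstn and Vasp, since Dstn passed the test in each of the 4 comparisons with control and Vasp had the largest Mkl1 change in its family. Each holds a match with 1 other base, which starts 106 bases before the gene start in Dstn and 31 bases before it in Vasp.

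Dstn (chr2:143915081-143915330, plus strand): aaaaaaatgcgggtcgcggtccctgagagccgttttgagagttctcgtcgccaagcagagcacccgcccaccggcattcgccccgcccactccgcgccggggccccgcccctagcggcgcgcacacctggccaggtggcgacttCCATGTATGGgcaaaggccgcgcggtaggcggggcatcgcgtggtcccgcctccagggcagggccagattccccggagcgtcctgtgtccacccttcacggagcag
Vasp (chr7:19271855-19272104, minus strand): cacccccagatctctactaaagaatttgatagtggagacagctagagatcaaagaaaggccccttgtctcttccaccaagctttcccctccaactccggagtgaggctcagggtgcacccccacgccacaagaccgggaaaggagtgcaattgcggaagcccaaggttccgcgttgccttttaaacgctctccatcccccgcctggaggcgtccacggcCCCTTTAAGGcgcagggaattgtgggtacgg

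With Mkl1, 19 of the 47 tested regulators rose and 1 fell, where a gene rose or fell if the adjusted p of the fit over all probes (limma, Benjamini-Hochberg) was under 0.05. The increases covered most monomer-binding proteins, all of the cofilin group and 4 of 8 Arp2/3 subunits, and the median log2 fold change over the 47 genes was 0.24. Among all named genes tested, 17.7% were higher and 11.3% lower with Mkl1, and the median was 0.02. Because 39 of the 47 regulators lay above the 75th percentile on average, named genes with such levels are the closer background: 23.7% of them were higher and 10.1% lower, with a median of 0.08. The share of regulators that rose was 40.4%. By the stricter count, over 2-fold as well, 2 regulators rose, Dstn and Cap1, against 1.88% of named genes.

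On the arrays labelled Srf, 6 regulators rose and 6 fell, 12.8% in each direction. The background was 17.4% higher and 16.5% lower over all named genes, with 16.4% and 19.7% over those above the 75th percentile, so neither share stood above it. The median over the regulators was 0.01.

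With shActb_1, 11 regulators rose (23.4%) and 0 fell, against a background of 7.78% higher and 6.17% lower over named genes and 10.7% and 4.54% over those above the 75th percentile. At an unadjusted p under 0.05 in the same limma fit, 15 were higher and 2 lower. With shActb_2, 28 rose (59.6%) and 3 fell, against a background of 28.2% higher and 16.4% lower over named genes and 39.3% and 10.7% over those above the 75th percentile. By the stricter count 1 regulator rose with shActb_2, Dstn, against 2.4% of named genes. The medians over the 47 regulators were 0.09 and 0.32, and those of named genes above the 75th percentile 0.07 and 0.16.

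These counts depended on the processing and the arrays used. With the spread estimated from the 4 compared arrays alone, 0 regulators passed for Srf and for Mkl1 (6 higher and 6 lower, and 17 higher and 0 lower, at an unadjusted p under 0.05 in limma), 2 for shActb_1, and 27 rose for shActb_2. In the same fits, 4.89% of named genes were higher for Srf, 0.351% for Mkl1, 2.01% for shActb_1 and 25.1% for shActb_2. Lower were 3.88% for Srf and 0.198% for Mkl1. Under quantile normalization the shActb_2 counts became 16 higher and 6 lower, and the shActb_1 count became 7 higher. The shares of named genes were then 19.4% higher and 16.5% lower with shActb_2, and 5.38% higher with shActb_1. Without any 1 of the 4 compared arrays, fewer regulators passed with shActb_1 and with shActb_2, and the share of named genes higher fell as well. The median over the regulators was then 0.099 to 0.105 with shActb_1 and 0.29 to 0.34 with shActb_2. For the arrays labelled Srf the counts were 3 higher and 5 lower without EGFP replicate 1, 11 and 7 without EGFP replicate 2, 2 and 4 without Srf replicate 1, and 5 and 2 without Srf replicate 2. Of the calls against control, those that held in all 4 fits without 1 array were 4 of 12 on the arrays labelled Srf (Tmsb4x, Limk1, Wasf3 and Fhod3), 12 of 20 with Mkl1, 4 of 11 with shActb_1 (Dstn, Wdr1, Actr3 and Vasp) and 17 of 31 with shActb_2. The Mkl1 calls lost in at least 1 such fit were those of Pfn1, Tmsb4x, Twf1, Twf2, Cfl1, Cfl2, Capg and Evl. The shActb_2 calls lost in at least 1 were those of Pfn1, Pfn2, Capza2, Capzb, Capg, Arpc1a, Actr2, Wasf1, Diaph1, Diaph2, Diaph3, Fmnl3, Fhod1 and Fhod3. Quantile normalization ended 12 shActb_2 calls, of Pfn1, Pfn2, Cfl1, Capza2, Capzb, Capg, Arpc1a, Arpc5, Wasf1, Diaph2, Fhod1 and Evl, and lowered others, for example Tmsb4x to 0.24, Arpc2 to 0.20 and Actr3 to 0.30. For Mkl1, 13 to 22 were higher when any array was left out, and 4 were lower without EGFP replicate 2 and 0 without Mkl1 replicate 2.

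**Figure D1:**
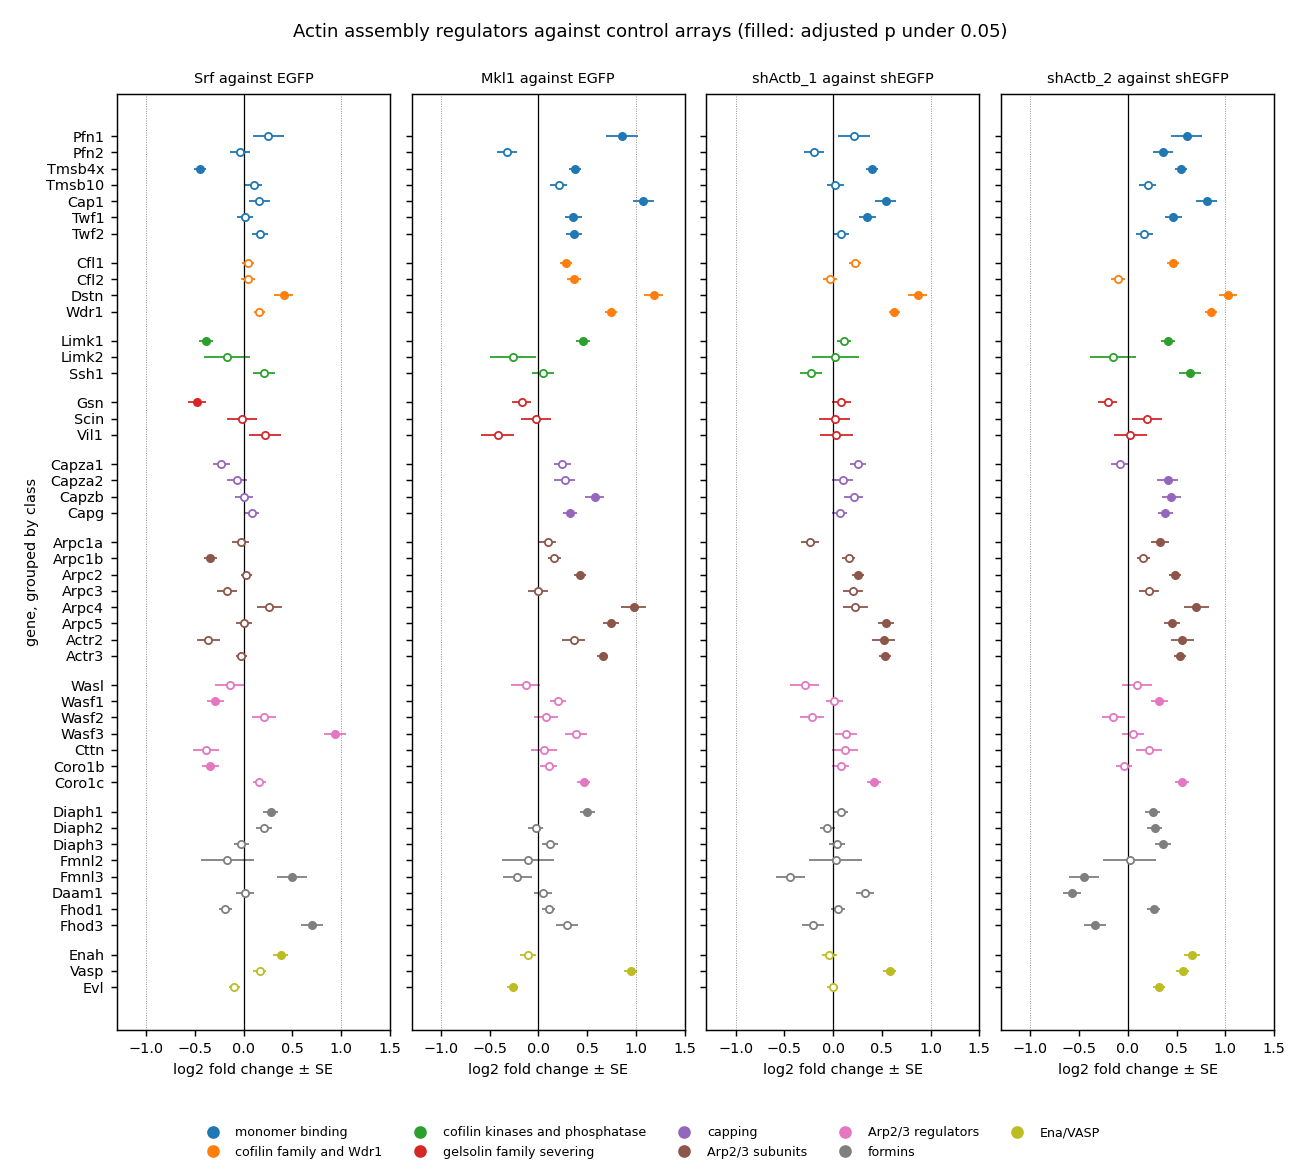
Log2 fold change (points) and standard error (bars) of the 47 tested regulators, grouped by class, in the 4 comparisons with control arrays. Filled points passed an adjusted p under 0.05, dotted lines mark 2-fold, and 2 genes, Dstn and Cap1, passed it with Mkl1.

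**Figure D2:**
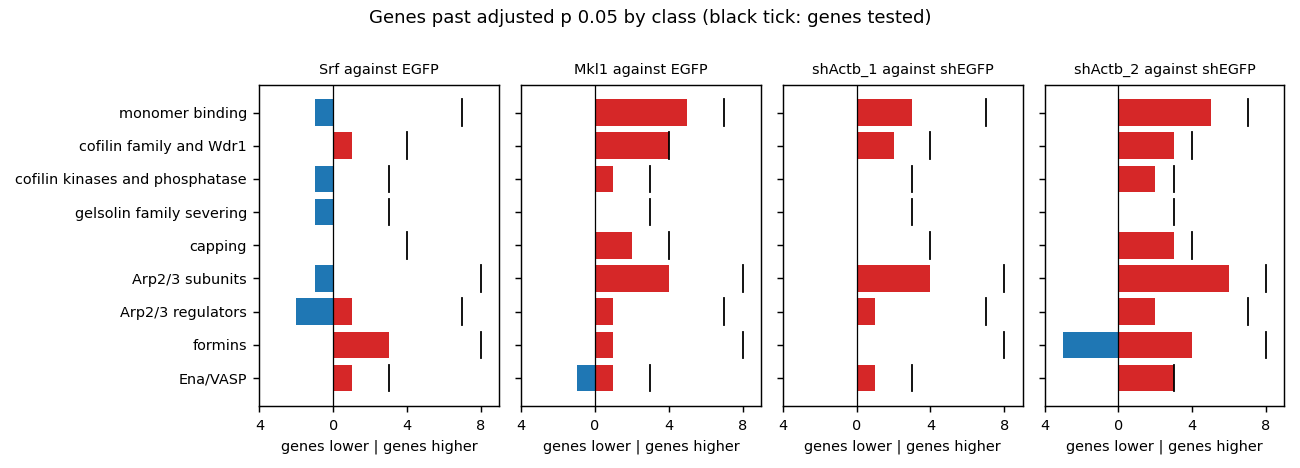
Number of genes in each class that rose (red, right) or fell (blue, left) in each comparison, with a black tick at the number tested. All 4 genes of the cofilin group rose with Mkl1, and the gelsolin family had no increase against control.

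Monomer-binding proteins were among the classes that rose with Mkl1, with 5 of 7 tested genes higher. The numbers that rose were 3 with shActb_1, 5 with shActb_2 and 0 on the arrays labelled Srf, where 1 fell. Cap1, the cyclase-associated protein that recharges monomers released by cofilin, read 4.75 and 5.06 in EGFP and 5.94 and 6.02 with Mkl1. Its arrays labelled Srf read 5.02 and 5.11, overlapping the range of EGFP. In the knockdown experiment it read 4.84 and 4.87 in shEGFP, 5.47 and 5.33 with shActb_1, and 5.64 and 5.69 with shActb_2. Cap1 was thus higher on every Mkl1 and shActb array than on any control array. Its log2 fold change was 1.08 with Mkl1 (SE 0.11, adjusted p = 0.000948, limma), 0.54 with shActb_1 (SE 0.11, adjusted p = 0.0212, limma), and 0.81 with shActb_2 (SE 0.11, adjusted p = 0.00123, limma). The shActb_1 call was lost when any of the 4 arrays was left out (adjusted p = 0.0695 to 0.137, limma).

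Profilin 1 (Pfn1) loads monomers onto growing filament ends. It read 4.22 and 4.76 in EGFP, 5.32 and 5.36 with Mkl1, and 4.67 and 4.81 on the arrays labelled Srf. Its shEGFP arrays read 4.47 and 4.51, those of shActb_1 4.80 and 4.60, and those of shActb_2 5.06 and 5.12. The EGFP duplicates differed more for Pfn1 than for the other genes shown by array, yet both lay below the Mkl1 arrays. Pfn1 rose by 0.85 with Mkl1 (SE 0.16, adjusted p = 0.0108, limma) and by 0.60 with shActb_2 (SE 0.16, adjusted p = 0.0213, limma), and its change with shActb_1 was 0.21 (SE 0.16). Quantile normalization ended the shActb_2 call (adjusted p = 0.0898, limma), as did leaving out any one of the 4 arrays, and without Mkl1 replicate 2 the Mkl1 call was lost too (adjusted p = 0.0735, limma).

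Thymosin β4 (Tmsb4x) sequesters monomers and is one of the genes that moved in opposite directions with the overexpression vectors. It read 6.85 and 6.73 in EGFP, 7.14 and 7.19 with Mkl1, and 6.37 and 6.31 on the arrays labelled Srf, with no overlap between these groups. It read 6.64 and 6.68 in shEGFP, 7.05 and 7.06 with shActb_1, and 7.22 and 7.18 with shActb_2, again without overlap. The log2 fold change was -0.45 on the arrays labelled Srf (SE 0.06, adjusted p = 0.00183, limma) and 0.37 with Mkl1 (SE 0.06, adjusted p = 0.00606, limma), and the Mkl1 call was lost without Mkl1 replicate 2. With the hairpins it was 0.40 and 0.54, and 3 of the 4 fits without 1 array lost the shActb_1 call. Pseudogene copies of Tmsb4x, Cfl1 and Pfn1 may share sequence with the probes, and their signal is uncertain to that extent. Tmsb10, a paralog of Tmsb4x, did not pass the test in any of the 4 comparisons (0.02 to 0.21).

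The twinfilins hold monomers and also bind capping protein. Twf1 rose with Mkl1 (0.36), shActb_1 (0.35) and shActb_2 (0.47), and Twf2 rose with Mkl1 (0.37). The Twf1 call with Mkl1 was lost under quantile normalization and without either Mkl1 array, and the Twf2 call without EGFP replicate 1 or either Mkl1 array. Pfn2, the profilin most abundant in nervous tissue, rose with shActb_2 alone (0.36), and its change with Mkl1 was -0.32, not past the threshold. Cap2 read -4.76 and -5.13 on the arrays labelled Srf and -5.96 or lower on the other 10, and was well above background on 1 array only, so no fold is given.

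The cofilin group held the largest change of the set with Mkl1 and with each hairpin. Destrin (Dstn, or ADF), which severs filaments and speeds the loss of subunits from them, was the one regulator that passed the test in all 4 comparisons with control. It read 4.37 on both EGFP arrays, 5.53 and 5.57 with Mkl1, and 4.93 and 4.63 on the arrays labelled Srf. It read 4.46 and 4.56 in shEGFP, 5.39 and 5.36 with shActb_1, and 5.50 and 5.57 with shActb_2. Every treated array lay above every control array. The rise was 1.18 on the log2 scale with Mkl1, or 2.27-fold (SE 0.10, adjusted p = 0.000468, limma), and 1.03 with shActb_2, or 2.04-fold (SE 0.10, adjusted p = 0.000342, limma). With shActb_1 it was 0.87, or 1.82-fold (SE 0.10, adjusted p = 0.00218, limma). On the arrays labelled Srf it was 0.41 (SE 0.10, adjusted p = 0.019, limma), and that call was lost without EGFP replicate 1 (adjusted p = 0.0605, limma) or without Srf replicate 1 (0.26 on the log2 scale, adjusted p = 0.0735, limma).

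Wdr1, which works with cofilin to take filaments apart, read 4.62 and 4.58 in EGFP and 5.35 and 5.34 with Mkl1. It read 4.65 and 4.72 in shEGFP, 5.29 and 5.34 with shActb_1, and 5.51 and 5.56 with shActb_2. The duplicates lay close together, and all 6 treated arrays of these groups lay above the 4 control arrays. The changes were 0.74 with Mkl1 (SE 0.06, adjusted p = 0.000423, limma), 0.63 with shActb_1 (SE 0.06, adjusted p = 0.00114, limma) and 0.85 with shActb_2 (SE 0.06, adjusted p = 0.000128, limma). On the arrays labelled Srf it read 4.72 and 4.81, a change of 0.16 that did not pass the test (adjusted p = 0.0857, limma).

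Cofilin 1 (Cfl1), the main cofilin outside muscle, moved less. It read 7.46 and 7.54 in EGFP, 7.77 and 7.79 with Mkl1, and 7.59 and 7.50 on the arrays labelled Srf. It read 7.39 and 7.37 in shEGFP, 7.59 and 7.61 with shActb_1, and 7.88 and 7.81 with shActb_2. The Mkl1 and shActb arrays lay above their controls, and the arrays labelled Srf overlapped EGFP. Cfl1 rose by 0.28 with Mkl1 (SE 0.06, adjusted p = 0.0166, limma) and by 0.46 with shActb_2 (SE 0.06, adjusted p = 0.00122, limma). Under quantile normalization neither passed (0.19 and 0.15), and the Mkl1 call was also lost without EGFP replicate 1 or either Mkl1 array. The other Cfl1 probes gave 0.63 and 0.74 with Mkl1, both past the threshold, and 0.33 and 0.49 with shActb_2, of which the first did not pass. Cfl2, the muscle form, rose with Mkl1 (0.36, and 0.56 at its other probe) and not with the hairpins (-0.03 and -0.10).

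The enzymes that switch cofilin off and on did not move as a group. Limk1, the kinase that inactivates cofilin, rose with Mkl1 (0.46, adjusted p = 0.00463, limma) and with shActb_2 (0.41, adjusted p = 0.00354, limma) and fell on the arrays labelled Srf (-0.39, adjusted p = 0.00641, limma). Its arrays read 2.70 and 2.77 in EGFP, 3.24 and 3.14 with Mkl1, and 2.35 and 2.34 on the arrays labelled Srf, 3 groups with no overlap. The phosphatase Ssh1, which reactivates cofilin, rose with shActb_2 (0.64, and 0.38 with normexp background correction), whose arrays read -2.82 and -2.81 against -3.44 and -3.48 in shEGFP. Limk2 did not pass in any comparison.

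**Figure D3:**
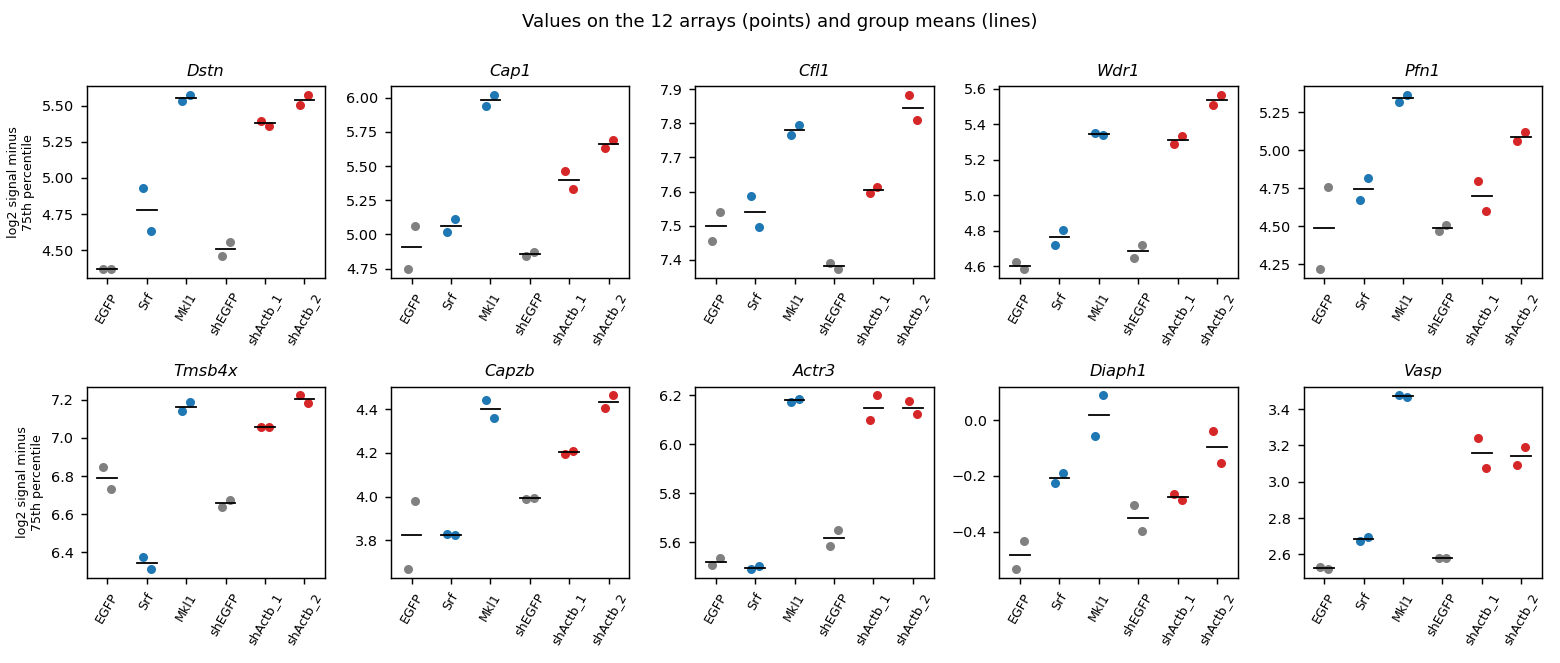
Log2 signal minus the 75th percentile of the array for 10 regulators on the 12 arrays (points) with group means (lines), controls in grey, overexpression in blue and knockdown in red. The Dstn, Wdr1 and Vasp arrays of Mkl1 and of both hairpins lay above all 4 control arrays.

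The gelsolin family, calcium-dependent severing proteins, had 0 of 3 genes higher in any of the 4 comparisons. The smallest unadjusted p among them, outside the arrays labelled Srf, was 0.0403 for the lower Vil1 level with Mkl1 (-0.42, adjusted p = 0.122, limma). Gsn fell on the arrays labelled Srf, which read 5.45 and 5.33 against 6.0 and 5.74 in EGFP (-0.48, SE 0.10, adjusted p = 0.00985, limma). That call was lost without Srf replicate 2. Its other probe fell too (-0.39) and also fell with shActb_2 (-0.27). Scin and Vil1 did not pass against any control. Both were dim, with group means of -4.71 to -4.42 for Scin and -4.74 to -4.10 for Vil1, against 5.28 to 5.87 for Gsn. The result for this family thus rests mostly on Gsn.

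Capping proteins close the growing ends of filaments. Capzb, the β subunit of capping protein, read 3.67 and 3.98 in EGFP, 4.44 and 4.36 with Mkl1, and 3.83 and 3.82 on the arrays labelled Srf. It read 3.99 on both shEGFP arrays, 4.19 and 4.21 with shActb_1, and 4.41 and 4.46 with shActb_2. The knockdown groups did not overlap their control, and the arrays labelled Srf lay between the EGFP arrays. Capzb rose by 0.58 with Mkl1 (SE 0.10, adjusted p = 0.00652, limma) and by 0.44 with shActb_2 (SE 0.10, adjusted p = 0.00924, limma). The shActb_2 call was lost under quantile normalization (adjusted p = 0.0829, limma) and without shEGFP replicate 1 or shActb_2 replicate 2. The dimmer Capzb probe was higher with Mkl1 (0.75), with shActb_2 (0.53) and on the arrays labelled Srf (0.64), so the probes differed for Srf. Capg, a capping protein that does not sever, rose with Mkl1 (0.32) and shActb_2 (0.39). Of the α subunits, Capza2 rose with shActb_2 (0.41) and Capza1 passed in none, although another Capza1 probe fell with shActb_2 (-0.56).

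The Arp2/3 complex starts new filaments as branches on old ones. Of its 8 subunit genes tested, 4 rose with Mkl1, 4 with shActb_1 and 6 with shActb_2, with median log2 fold changes of 0.39, 0.24 and 0.47. The arrays labelled Srf had 0 subunits higher and 1 lower, with a median of -0.03 (at an unadjusted p under 0.05 in limma, 0 higher and 2 lower). Actr3, which codes for Arp3, read 5.50 and 5.53 in EGFP and 6.17 and 6.19 with Mkl1. It read 5.58 and 5.65 in shEGFP, 6.10 and 6.20 with shActb_1, and 6.18 and 6.12 with shActb_2. All 6 treated arrays of these groups lay above the 4 control arrays, while the arrays labelled Srf read 5.49 and 5.50, at the level of EGFP. Actr3 rose by 0.66 with Mkl1 (SE 0.06, adjusted p = 0.000638, limma) and by 0.53 with each hairpin (SE 0.06, adjusted p = 0.00218 and 0.000639, limma).

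Arpc4 had the largest Mkl1 change of the complex. It read 3.19 and 3.55 in EGFP and 4.34 and 4.36 with Mkl1, a rise of 0.98 (SE 0.13, adjusted p = 0.00256, limma), with 0.83 at its other probe. With shActb_2 it rose by 0.70, and with shActb_1 it changed by 0.23, not past the threshold. Arpc5 rose with Mkl1 (0.74), shActb_1 (0.54) and shActb_2 (0.46), and its other probe gave 0.91, 0.63 and 0.99. Arpc2 rose by 0.43, 0.25 and 0.49 in the same order. Actr2, which codes for Arp2, rose with the hairpins (0.52 and 0.56), and its Mkl1 change of 0.36 did not pass. Arpc1a rose with shActb_2 (0.33), and Arpc1b, its paralog in the complex, fell on the arrays labelled Srf (-0.34). Arpc3 passed in none at its brightest probe, whereas its other probes rose with shActb_2 by 0.36 and 0.79.

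Other proteins switch Arp2/3 on, or hold and undo its branches. Of 7 tested, 1 rose with Mkl1, 1 with shActb_1 and 2 with shActb_2, and on the arrays labelled Srf 1 was higher and 2 lower. Coro1c, a coronin that acts on branches, was the one that rose with Mkl1 (0.46), and it also rose with the hairpins (0.42 and 0.56). Wasf1, a subunit of the WAVE complex that activates Arp2/3, rose with shActb_2 (0.32) and fell on the arrays labelled Srf (-0.29). Coro1b fell there as well (-0.34). The Wasf1 call on those arrays was lost when any of the 4 arrays was left out and under quantile normalization, and the Coro1b call was lost without EGFP replicate 2 or either Srf array. Wasf3 showed the reverse. Its arrays labelled Srf read -2.01 and -1.99 against -2.75 and -3.12 in EGFP, a rise of 0.94 (SE 0.11, adjusted p = 0.00108, limma). With normexp background correction it was 0.57, still past the threshold, and its other probe changed by 0.19 and did not pass. Wasl and Cttn passed in none of the 4 comparisons, and Wasf2 passed in none at its brightest probe, while another Wasf2 probe fell with Mkl1 (-0.35) and shActb_2 (-0.32).

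Formins start and elongate unbranched filaments. They were the class with the most increases on the arrays labelled Srf, 3 of 8, and they had 1 increase with Mkl1 and 0 with shActb_1. With shActb_2 they divided, with 4 higher and 3 lower. Diaph1, a diaphanous-related formin, read -0.54 and -0.43 in EGFP, -0.05 and 0.09 with Mkl1, and -0.23 and -0.19 on the arrays labelled Srf. It read -0.30 and -0.40 in shEGFP, -0.26 and -0.29 with shActb_1, and -0.04 and -0.15 with shActb_2. Both overexpression groups lay above EGFP, and the shActb_1 arrays lay above shEGFP by less than the spread of its duplicates. Diaph1 rose with Mkl1 (0.50, SE 0.08, adjusted p = 0.00468, limma), on the arrays labelled Srf (0.28, SE 0.08, adjusted p = 0.0357, limma) and with shActb_2 (0.26, SE 0.08, adjusted p = 0.0333, limma). The Srf call was lost without any of EGFP replicate 1, Srf replicate 1 and Srf replicate 2, and the shActb_2 call when any of the 4 arrays was left out, and neither held without the filter on dim probes (adjusted p = 0.0954 and 0.0854, limma). The dimmer Diaph1 probe passed in none (-0.28 on the arrays labelled Srf, -0.25 with Mkl1, 0.15 and 0.43 with the hairpins), and it was of opposite sign to the brighter probe in both overexpression groups.

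Fhod3, a formin of muscle sarcomeres, and Fmnl3 rose on the arrays labelled Srf (0.70 and 0.49) and fell with shActb_2 (-0.34 and -0.45). Both shActb_2 calls and the Fmnl3 call on the arrays labelled Srf were lost when any of their 4 arrays was left out, and the Fhod3 call on the arrays labelled Srf held without each. Diaph2, Diaph3 and Fhod1 rose with shActb_2 by 0.27 to 0.36, while the other Diaph2 probe changed by -0.088 and did not pass. Daam1 fell with shActb_2 (-0.57). Fmnl2 passed in none at its brightest probe, and its other probe rose on the arrays labelled Srf (0.44) and fell with shActb_1 (-0.58).

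The Ena/VASP proteins elongate filaments at their growing ends, and their 3 genes did not move together. Vasp read 2.53 and 2.52 in EGFP, 3.48 and 3.47 with Mkl1, and 2.68 and 2.70 on the arrays labelled Srf. It read 2.58 on both shEGFP arrays, 3.24 and 3.08 with shActb_1, and 3.09 and 3.19 with shActb_2. Every Mkl1 and shActb array lay above every control array. Vasp rose by 0.95 with Mkl1 (SE 0.07, adjusted p = 0.000277, limma), by 0.58 with shActb_1 (SE 0.07, adjusted p = 0.00274, limma) and by 0.56 with shActb_2 (SE 0.07, adjusted p = 0.000875, limma). Its change on the arrays labelled Srf was 0.16 (adjusted p = 0.121, limma). Evl read 5.21 and 5.22 in EGFP and 4.98 and 4.92 with Mkl1, and was the one regulator that fell with Mkl1 (-0.27, SE 0.06, adjusted p = 0.0154, limma). It rose with shActb_2 (0.32). Enah rose on the arrays labelled Srf (0.38, lost without Srf replicate 1) and with shActb_2 (0.66), and its other probes did not pass in either (-0.07 and 0.33, and 0.01 and -0.09).

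**Figure D4:**
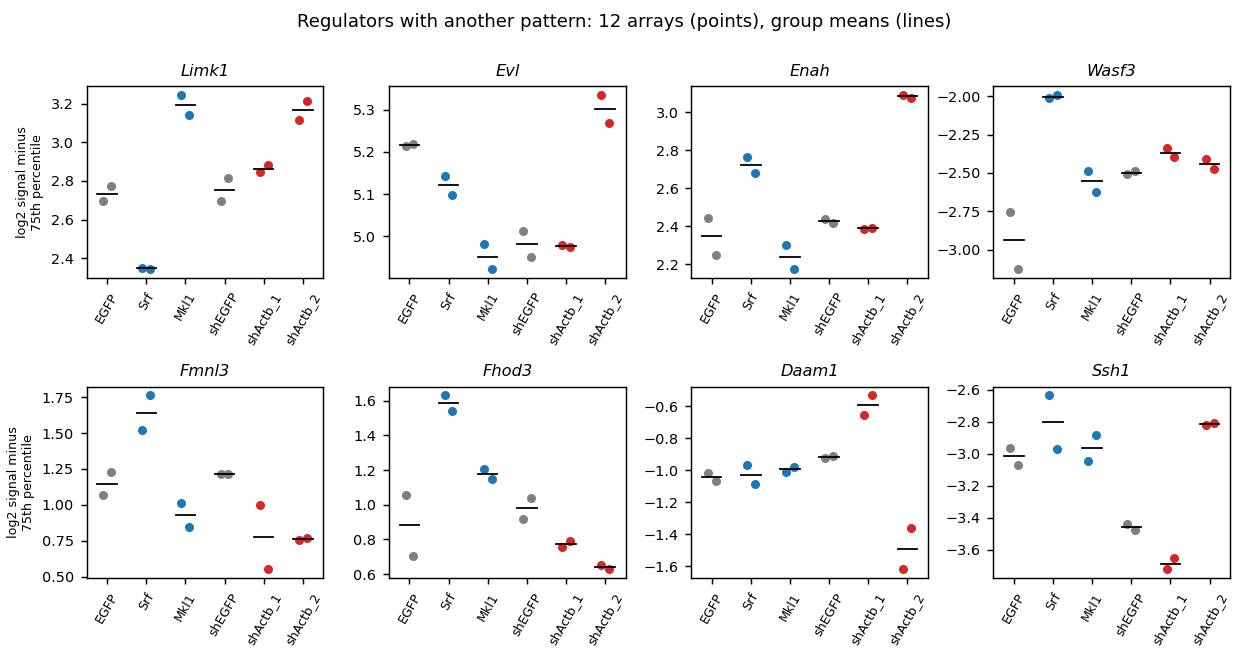
The same scale and symbols for 8 regulators that did not follow the pattern of Dstn, chosen after their values were seen. Limk1 was lowest on the arrays labelled Srf, Evl lay below EGFP with Mkl1 and above shEGFP with shActb_2, and Wasf3, Fmnl3 and Fhod3 were highest on the arrays labelled Srf.

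The Srf and Mkl1 comparisons share the EGFP arrays, so their difference was tested directly, between arrays of one slide and one row. On the arrays labelled Srf, 23 of 47 regulators were lower than with Mkl1 (48.9%) and 5 were higher, where the background was 20% lower and 14.4% higher over named genes and 27.3% lower and 10.4% higher over those above the 75th percentile. All 4 genes of the cofilin group and 6 of 8 Arp2/3 subunits were among the lower ones. The differences were -0.92 for Cap1 (SE 0.11, adjusted p = 0.000819, limma), -0.85 for Limk1 (SE 0.07, adjusted p = 0.000166, limma), -0.82 for Tmsb4x (SE 0.06, adjusted p = 0.000103, limma) and -0.79 for Vasp (SE 0.07, adjusted p = 0.000198, limma). The 5 higher genes were Fmnl3 (0.71), Vil1 (0.64), Wasf3 (0.55), Enah (0.49) and Fhod3 (0.41). With the spread from these 4 arrays alone, 26 regulators passed in place of 28, and 17 passed without Srf replicate 1, 18 without Srf replicate 2 and 18 without Mkl1 replicate 2.

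The Mkl1 and shActb comparisons share no arrays. Of the 19 regulators that rose with Mkl1, 10 also rose with shActb_1 (52.6% of the Mkl1 list and 90.9% of the shActb_1 list), namely Dstn, Wdr1, Cap1, Tmsb4x, Twf1, Arpc2, Arpc5, Actr3, Coro1c and Vasp. The shActb_1 calls of Cap1, Twf1, Arpc2 and Coro1c were lost when any array was left out, and those of Dstn, Wdr1, Actr3 and Vasp held without each. With shActb_2 the overlap was 17 (89.5% of the Mkl1 list and 60.7% of the shActb_2 list). Over all named genes tested in both, the corresponding shares were 29.7% and 66.7% with shActb_1, and 66.4% and 41.4% with shActb_2. When the mean hairpin effect was subtracted from the Mkl1 effect, 1 of 47 regulators passed, against a background of 3.59%. It was Evl (-0.42, SE 0.08, adjusted p = 0.0376, limma). At an unadjusted p under 0.05 in limma, 6 were higher and 3 lower. A p above the threshold does not show that the effects were equal: the difference was 0.45 for Pfn1 (SE 0.22), 0.40 for Cap1 (SE 0.14) and 0.38 for Vasp (SE 0.09). Without EGFP replicate 2, 12 regulators passed in this test, and 0 passed without either Mkl1 array or any 1 of the 6 knockdown arrays.

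The hairpins share the shEGFP arrays and were compared directly as well, with the limit that shActb_2 had a slide of its own. Of 47 regulators, 15 were higher with shActb_2 (31.9%) and 2 lower, against a background of 20.9% and 12.5% over named genes and 24.7% and 9.44% over those above the 75th percentile. Daam1 was lower by 0.90 (SE 0.09, adjusted p = 0.000808, limma), with arrays at -1.62 and -1.36 for shActb_2 and -0.65 and -0.53 for shActb_1. Ssh1 was higher by 0.87 (SE 0.11, adjusted p = 0.0017, limma) and Enah by 0.69 (SE 0.08, adjusted p = 0.00114, limma). Actr3 and Vasp differed by 0.00050 (SE 0.06) and -0.015 (SE 0.07). Of the 17, 6 passed without shActb_2 replicate 2, 7 without shActb_1 replicate 2, and 8 without either of the other 2 arrays. The share of probes well above background was 72.5% and 59.3% on the shActb_2 arrays and 62.7% and 69.2% on those of shActb_1, and its part in these differences was not tested.

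**Figure D5:**
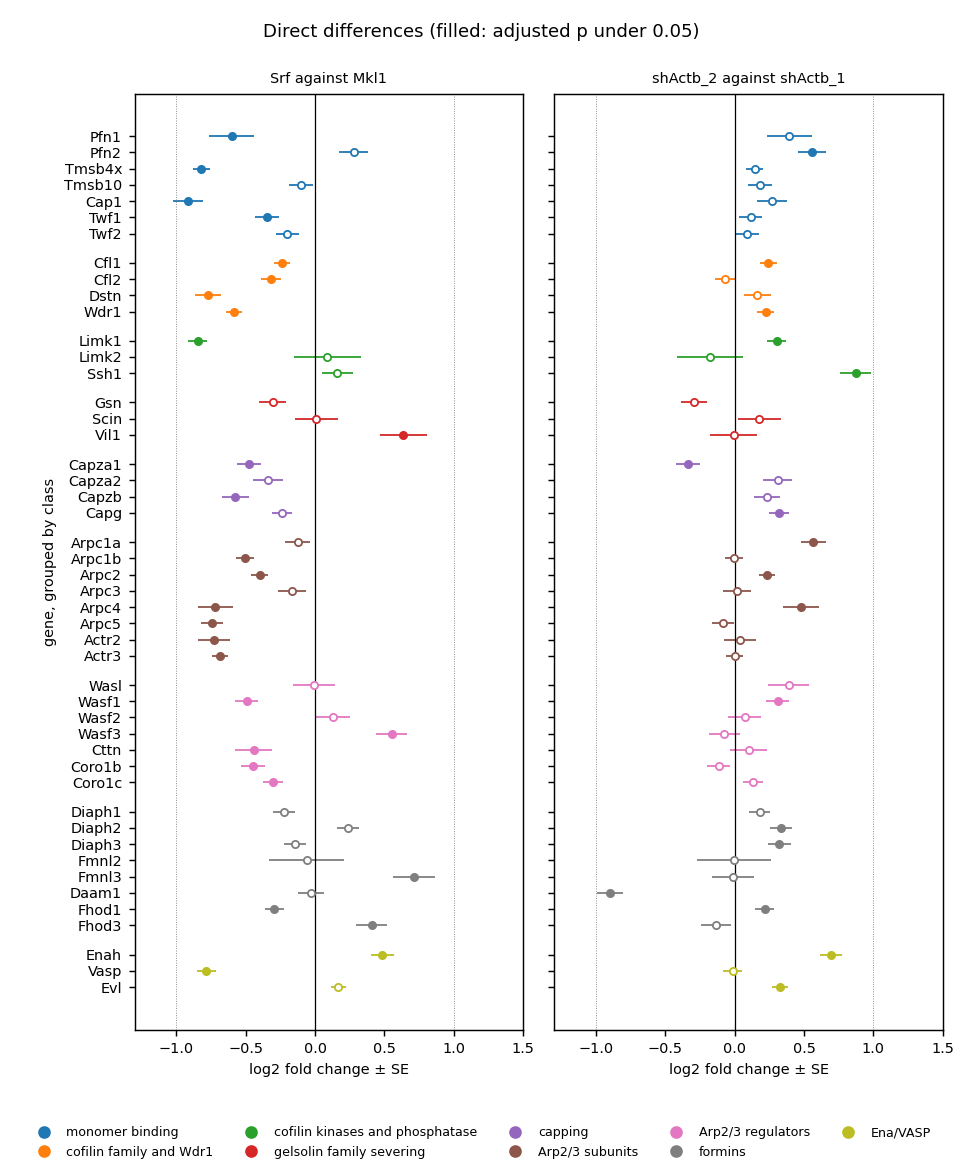
Direct differences in log2 level (points, with standard errors) of the 47 tested regulators between the arrays labelled Srf and Mkl1 (left) and between shActb_2 and shActb_1 (right). Filled points passed an adjusted p under 0.05, with 23 lower and 5 higher on the left and 15 higher and 2 lower on the right.

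Other genes of actin assembly, listed by function, gave a background from the same pathway. Of 48 further regulators, 45 were tested against EGFP, with 15 higher and 9 lower on the arrays labelled Srf and 11 higher and 5 lower with Mkl1. Of 43 tested against shEGFP, 7 rose and 4 fell with shActb_1 and 18 rose and 8 fell with shActb_2. Over all named genes, 17.4% were higher and 16.5% lower on the arrays labelled Srf, and 17.7% and 11.3% with Mkl1. The same shares were 7.78% and 6.17% with shActb_1, and 28.2% and 16.4% with shActb_2. Among the further regulators past the threshold, the largest increases on the arrays labelled Srf were in Abi3 (1.65), Coro2b (1.37) and Daam2 (1.1). The largest decreases past it with Mkl1 were in Daam2 (-1.01), Cyfip2 (-0.85) and Abi3 (-0.76), and the largest increases in Fmnl1 (0.67), Pdxp (0.60) and Svil (0.52). Daam2, a formin, was also lower with shActb_1 (-1.11) and shActb_2 (-1.35), while Fmnl1, another formin, was higher with both (0.80 and 1.1). Pdxp is a phosphatase that activates cofilin, and Svil a member of the villin family.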

How the data were processed

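Total RNA was labelled with cyanine 3 and hybridized to 1-colour Agilent mouse arrays. The 62976 features fit the 8 × 60K format named in the methods, while the labels name another. The authors deposited the scanner's processed signal intensity of each spot (Feature Extraction 11.5.1.1, background-subtracted, not normalized between arrays) and a table of log2 values. Per the comparison with the scanner files, 99.7% to 99.8% of the values in a column of the deposited log2 table are the log2 intensity shifted by 1 constant, within 0.01.

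Log2 intensities without control and outlier spots were averaged per probe, and the 75th percentile of each array (signal 843 to 1150) was subtracted. From 33008 to 40359 probes of an array passed the background flag, arrays of a group correlated at 0.993 to 0.998, no spot was saturated, and the number of arrays limits precision. Accessions gave 28026 of 55681 probes (50.3%) a symbol (GRCm38.p6 table, names only). Groups came from the titles. All 12 arrays were fitted with limma 3.58.1 in R 4.3.3 (two-sided, Benjamini-Hochberg over all probes tested), using probes well above background on both arrays of at least 1 compared group. A gene changed at an adjusted p under 0.05, and the stricter count asked for over 2-fold. The fit was tested on simulated data.

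The genes and lists were chosen with earlier results of these data known. Values by array are given for genes past both thresholds in a control comparison and for Cfl1, Pfn1, Tmsb4x, Wdr1, Capzb, Actr3, Diaph1 and Vasp whatever their values. Others shown by array were chosen after their values were seen. In the further list of actin assembly genes at most the 3 largest changes per direction are named. A further gene list is not reported here. Alternatives were normexp background correction (offset 50, on the median in place of the mean spot signal), quantile normalization, the deposited log2 table, no filter, a filter on all compared arrays, a spread from the compared arrays only, replicate numbers as a block, a variance trend with robust estimation, all probes, an adjusted p under 0.01, and each array left out.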

Additional observations from a re-analysis of the deposited data

Results flagged for a closer look

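The hairpins against Actb gave effects that differed in 17 of 47 regulators, by the direct test between shActb_2 and shActb_1 (limma, adjusted p under 0.05). That is 36.2%, close to the 33.4% of all named genes and 34.1% of those above the 75th percentile that differed. The differences, as shActb_2 minus shActb_1 on the log2 scale, were 0.56 for Pfn2, 0.24 for Cfl1, 0.22 for Wdr1, 0.30 for Limk1, 0.87 for Ssh1 and -0.34 for Capza1. They were 0.32 for Capg, 0.57 for Arpc1a, 0.23 for Arpc2, 0.48 for Arpc4 and 0.31 for Wasf1. They were 0.33 for Diaph2, 0.32 for Diaph3, -0.90 for Daam1, 0.22 for Fhod1, 0.69 for Enah and 0.32 for Evl. Slide and hairpin cannot be told apart in these values. The count was 6 to 8 when any of the 4 arrays was left out.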

How the results depend on the processing

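In the 7 comparisons no called regulator changed sign under the 8 alternatives that recompute its value or with 1 array left out. With the spread from the compared arrays only, the counts higher were 0 for Srf, 0 for Mkl1 and 2 for shActb_1, those lower were 0 for Srf and Mkl1, 0 passed 2-fold with Mkl1, and 0 passed for the Mkl1 minus hairpin difference. The shares of named genes higher also fell for Srf, Mkl1 and shActb_1, as given above. Quantile normalization gave 7 higher with shActb_1, 16 higher and 6 lower with shActb_2, 2 lower with Mkl1, 1 (Mkl1) and 0 (shActb_2) over 2-fold, medians of 0.055 (Srf), 0.19 (Mkl1) and 0.20 (shActb_2), and 0 for the Mkl1 minus hairpin difference. Normexp correction gave 2 lower and a median of 0.22 with Mkl1, and 3 for that difference. Without the filter, over 2-fold were 1 (Srf), 1 (shActb_1) and 2 (shActb_2). Cap2, well above background on 1 array only, is in each of these counts. Also without the filter, 0 were lower with Mkl1, 7 higher and 1 lower with shActb_1, 7 differed between hairpins and 0 in the Mkl1 minus hairpin difference. The stricter filter gave 3 there and the replicate block 2. The variance trend gave 10 lower with Srf, 2 lower with Mkl1, 1 lower with shActb_1 and 5 there. Counted over all probes, 2 were lower with Mkl1, 1 with shActb_1 and 6 with shActb_2, with medians of 0.035 (Srf), 0.21 (Mkl1) and 0.27 (shActb_2). At an adjusted p under 0.01, 2 were higher with Srf and 6 with shActb_1, 0 were lower with Mkl1 and 1 with shActb_2, 17 differed between Srf and Mkl1, 6 between hairpins, and 0 in the Mkl1 minus hairpin difference.

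Without 1 array, the counts higher were 2 to 11 (Srf), 13 to 22 (Mkl1), 4 to 6 (shActb_1) and 16 to 21 (shActb_2). The counts lower were 2 to 7, 0 to 4, 0 and 1, and those over 2-fold 0 to 1, 1 to 4, 0, and 0 to 1, in the same order. Medians were 0.0012 to 0.064, 0.21 to 0.24, 0.10 to 0.10 and 0.29 to 0.34. Between Srf and Mkl1 17 to 20 differed, between hairpins 6 to 8, and 0 to 12 in the Mkl1 minus hairpin difference. The lone array left was assumed to vary like the other groups. Where the alternative was not a smaller set of arrays, another filter or another threshold, the cause was not tested.

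Deviations of arrays with the same replicate number correlated at 0.24 (Srf and EGFP), 0.14 (Mkl1 and EGFP), 0.03 (shActb_1 and shEGFP) and 0.17 (shActb_2 and shEGFP), so the numbers do not pair all arrays. With the replicate block the counts higher were 5, 20, 10 and 28, and the calls against control that it ended were those of Fmnl3 (Srf and shActb_2) and Twf1 (shActb_1). It ended 1 call between Srf and Mkl1 and 1 between hairpins. Duplicates are few and may be technical, so precision is limited.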
